A study of Gallus gallus with 6 samples.

Results

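The drug-metabolising enzymes of the liver were followed here in 3 chickens labelled as resisting ALV-J, the subgroup J avian leukosis retrovirus, and 3 labelled as susceptible. Total RNA of each liver was sequenced, 1 library per bird, and gives no separate view of single cell types. The labels state neither age, sex, breed nor infection for either group, nor how resistance was scored. The enzymes were taken by name: genes whose symbol starts with CYP2, CYP3, CYP4, FMO, UGT, SULT, GST, MGST, EPHX, NAT, ALDH, AKR1 or AOX, less a few named relatives with other tasks. This gave 47 genes of the 14481 protein-coding genes in the deposited table, under 46 symbols, since GSTA3 stands at 2 loci. No symbol started with UGT, so the glucuronosyltransferases, a main conjugating family, were not analysed here. The name rule also took genes with other known tasks, among them FMOD (fibromodulin, a collagen-binding matrix protein), CYP2R1 (which 25-hydroxylates vitamin D), CYP21A2 (the steroid 21-hydroxylase of the adrenal gland) and ALDH18A1 (proline synthesis).

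The liver clears foreign compounds in successive phases. Phase 1 enzymes, chiefly cytochromes P450, flavin monooxygenases, aldehyde oxidases and dehydrogenases and aldo-keto reductases, oxidise or reduce a compound and expose a reactive group. Phase 2 enzymes then attach a sulfate, glutathione or acetyl group, and transporters export the product into bile or blood. Many of the same enzymes handle steroids, bile acids, retinoids, fatty aldehydes and amino acid breakdown products.

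The libraries differed in depth and in how many genes they listed at 0. The deposited scaled counts corresponded to 6623026, 5809095 and 3831119 fragments in resistant 1 to 3, against 5539793, 4261599 and 4449316 in susceptible 1 to 3. Levels are in FPKM, fragments per kilobase of transcript scaled to depth by the authors, so they can be set side by side between genes. An FPKM of 0 can be a failed estimate, because serum albumin (ALB), the main product of hepatocytes, stood at 24858 to 30679 FPKM in 4 birds but at 0 in resistant 2 and in susceptible 3. Such values are therefore named as listed at 0. They entered the test as 0 FPKM, and the folds that rest on them are marked as such. Of the 47 enzyme genes, 5, 5 and 9 were listed at 0 in resistant 1 to 3, against 8, 12 and 11 in susceptible 1 to 3. Resistant 3 and susceptible 3 also stood apart from the rest. They had 0 fragments on chromosome W, which only hens carry, while the other birds had 145 to 427. VTG2, an oestrogen-induced yolk precursor, was at 9.65 FPKM in resistant 3 and 20.6 in susceptible 3, and at 3345 FPKM or more in the other birds. Related genes did not all split the birds so clearly. VTG1 was at 3.19 FPKM in resistant 3 and 8.45 in susceptible 3, but also at only 33.3 in susceptible 1, against 5040 or more in the remaining birds. The oestrogen receptor ESR1 was listed at 0 in resistant 3, while susceptible 3, at 17.3 FPKM, lay close to resistant 1 at 18.2.

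All 16 hepatocyte markers in the table passed the filter on low values, 12 with a negative log2 fold change of resistant against susceptible birds, at a median of -0.17. TTR, transthyretin, ranged between 3673 and 10111 FPKM in the resistant birds and between 4528 and 9756 in the susceptible birds. All 6 skeletal muscle markers in the table, 6 of 7 kidney markers, 9 of 10 exocrine pancreas markers and 6 of 10 intestinal markers were listed at 0 in all birds, among them the kidney genes SLC12A1 and SLC34A1 and the intestinal genes VIL1 and CDX2. Of the pancreas markers only AMY1A was above 0, at 29.0 to 121 FPKM. Of the intestinal markers ANPEP stood at 60.5 to 105 FPKM. FABP2, CDH17 and SLC15A1 were above 0 in some birds only, at up to 10.8 FPKM. Kupffer cell and macrophage markers summed to 373 to 546 FPKM in the resistant birds and 153 to 568 in the susceptible birds, with a positive log2 fold change for 6 of 7 tested, at a median of 0.67. Those of T and NK cells summed to 35.1 to 119 FPKM in the resistant and 26.9 to 83.4 in the susceptible birds, with 6 of 8 positive, at a median of 1.04. Those of endothelium summed to 114 to 325 FPKM in the resistant and 96.7 to 190.2 in the susceptible birds, with 7 of 9 positive, at a median of 0.55. Not all other cell types lay this way. Of the markers tested, 3 of 5 of cholangiocytes, 2 of 3 of B and plasma cells and 2 of 3 of red cells were negative. Their medians were -0.058, -0.040 and -0.62. For stellate cells and matrix 5 of 8 were positive, at a median of 0.29. The 1 heterophil marker tested, LYG2, was positive but listed at 0 in susceptible 2 and 3. Some of these folds rest on listed 0s. The positive T and NK cell markers PTPRC, IL2RB, GZMA, CD247 and CD8A were listed at 0 in susceptible 2, as was the negative ZAP70. So was the macrophage marker C1QB, and EGFL7 of endothelium was listed at 0 in every susceptible bird and in resistant 3. Of all genes averaging 5 to 10 FPKM, 26.4% were listed at 0 in susceptible 2, against 3.11% in resistant 1. The part of these cells in the enzyme values was not tested. In whole liver, fewer hepatocytes and less enzyme RNA per hepatocyte cannot be told apart.

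Levels were spread over more than 3 orders of magnitude. The enzymes with the highest mean over the 6 birds were cyp3A37 (so spelled in the table), a drug-inducible P450 of chicken liver, at 1129 FPKM, and CYP2H1, the classical phenobarbital-inducible P450 of the chick, at 967 FPKM. Other abundant enzymes were the membrane-bound glutathione transferase MGST1 at 467 FPKM and the alpha-class glutathione transferase GSTA at 337 FPKM. The ranges of cyp3A37 and CYP2H1 over the birds overlapped, as did those of MGST1 and GSTA, so the order among such neighbours is not fixed. cyp3A37 and CYP2H1 together held 33.6% of the summed mean FPKM of the enzymes. In all, 18 genes had a mean of at least 100 FPKM and 33 of at least 10 FPKM. A further 10 had a mean under 10 FPKM, and 4 were listed at 0 throughout.

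**Figure D1:**
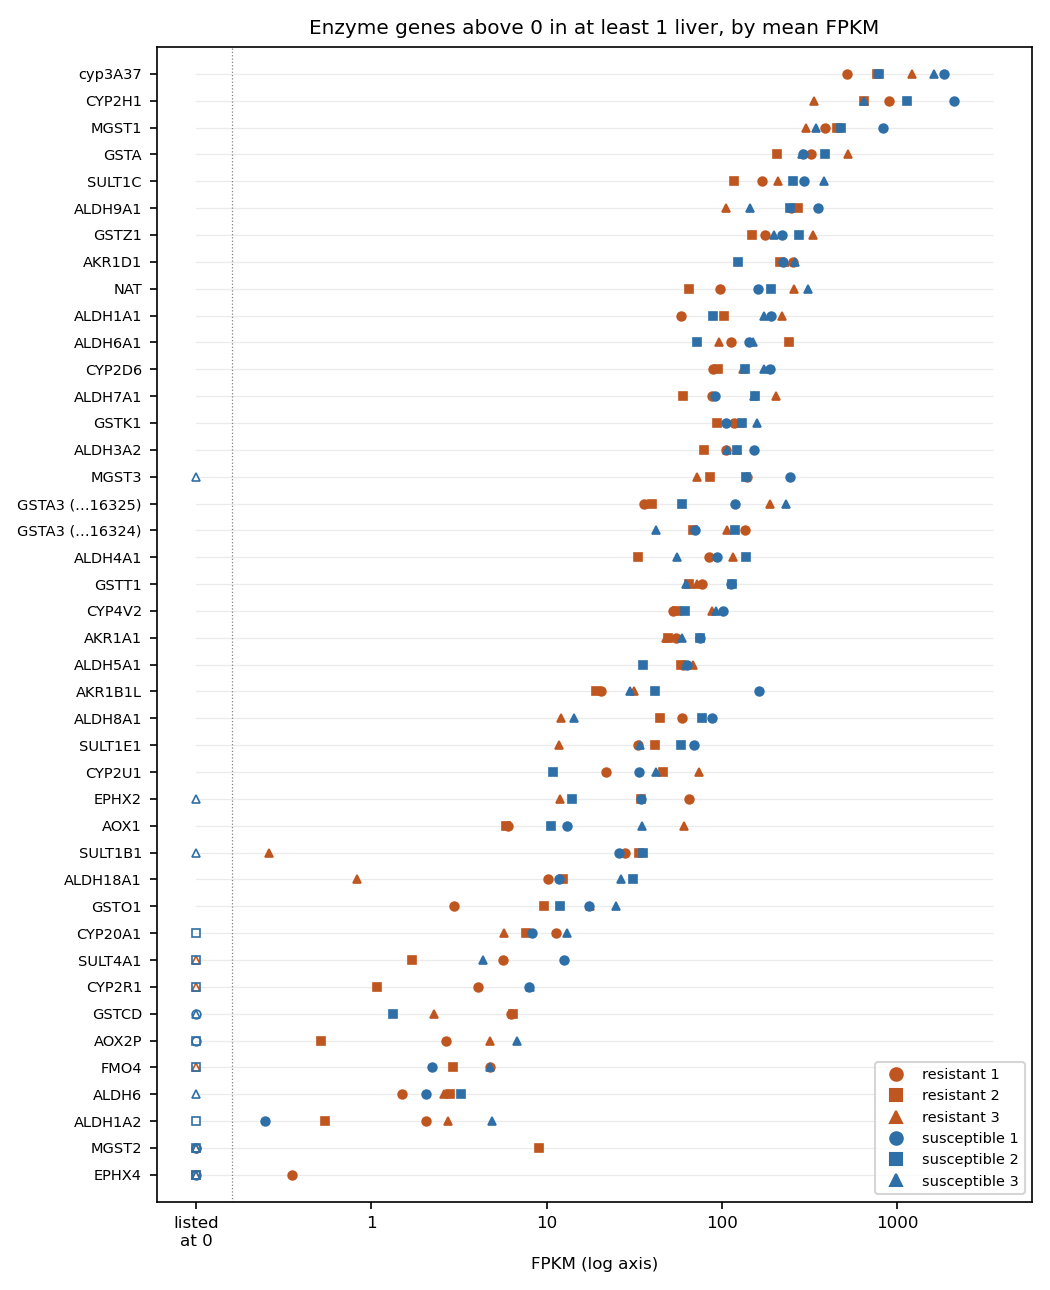
FPKM of 42 enzyme genes above 0 in at least 1 bird, on a log axis, 1 symbol per bird, with open symbols at the left for values listed at 0. cyp3A37 and CYP2H1 lead, and the birds of both groups are intermixed for most genes.

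The genes listed at 0 in all 6 birds were CYP21A2, CYP2W1 (a P450 of little-known substrate), FMOD and the sulfotransferase SULT6B1. EPHX4, an epoxide hydrolase relative that RefSeq lists as EPHX3, was above 0 only in resistant 1, at 0.353 FPKM, which corresponds to 4 fragments. MGST2, a microsomal glutathione transferase that can also make leukotriene C4, was above 0 only in resistant 2, at 9.00 FPKM, corresponding to 29 fragments. EPHX4 fell under the filter on low values. MGST2 entered the test and counts among the positive log2 fold changes below, but with a 0 in every susceptible bird the size of that fold is set by the pseudocount and is not given. A 0 in 1 or 2 birds was listed for 11 further genes, and 30 genes were above 0 in every bird.

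No enzyme gene passed the test of resistant against susceptible livers over all genes. The test was limma on log2(FPKM + 1), resistant minus susceptible, over the 9626 genes averaging 0.5 FPKM or more, of which 42 were enzymes. It called 0 of the 42 enzymes at a Benjamini-Hochberg adjusted p under 0.05, and 0 of all genes, a share of 0.0% in each direction. The smallest limma adjusted p among the enzymes was 0.984, and over all genes 0.580. At an unadjusted p under 0.05, limma counted 1 enzyme higher and 1 lower in resistant birds, where 2.4% of all tested genes were higher and 1.48% lower. The groups did not overlap for 1 enzyme higher and 3 lower in resistant birds. Over all tested genes these shares were 4.44% and 3.98%, and 38 of the 42 enzymes overlapped.

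Of the 42 enzymes tested, 26 had a negative and 16 a positive log2 fold change, where 47.2% of all tested genes were negative. Their median log2 fold change was -0.32, against 0.05 over all tested genes. The median among highly expressed genes in general was also below 0. Over the 1049 genes with a mean of at least 50 FPKM it was -0.14, with 664 of them negative, and over the 25 enzymes of that level it was -0.37, with 19 negative. Without resistant 2 the median of the 42 enzymes was -0.14, and without susceptible 1 it was -0.15. Susceptible 1 held the highest value of the 6 birds for 14 of the 42 enzymes and the lowest for 0 of the 30 enzymes above 0 in every bird. Resistant 2 held the lowest value for 11 of those 30. It was low over the table as well. The median-ratio factor, the typical level of a bird over 4995 genes above 0 in every bird, was lowest in resistant 2, at 0.839. It was 1.12 in susceptible 1. With each bird divided by its factor, the median log2 fold change of the 42 enzymes was -0.23, against 0.13 over all tested genes.

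**Figure D2:**
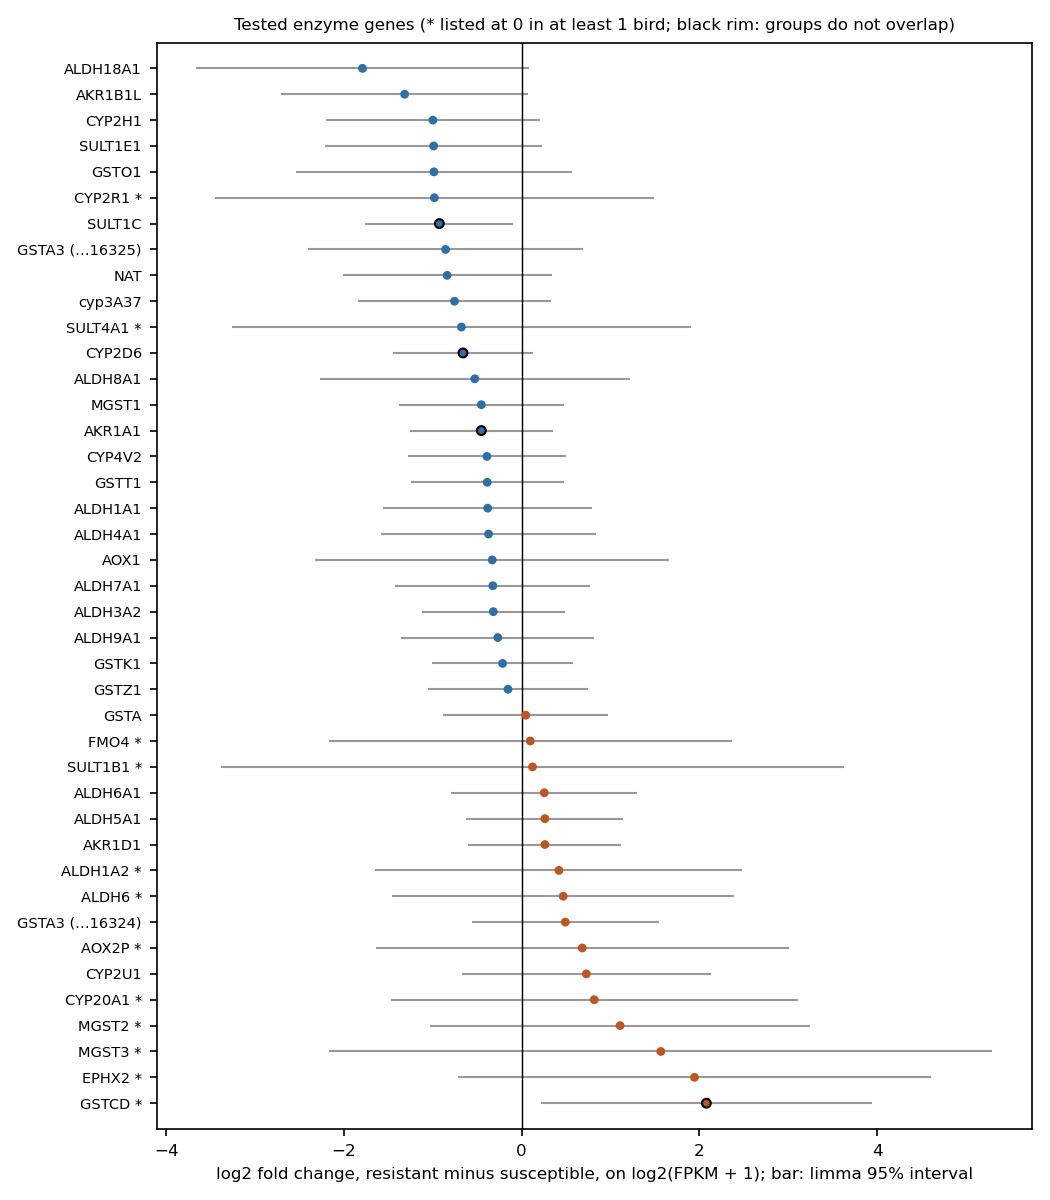
Log2 fold change (resistant minus susceptible, log2(FPKM + 1) scale) of 41 tested enzyme genes with limma 95% intervals, from the most negative at the top to the most positive at the bottom. Blue points lie below 0 and orange above, a black rim marks the 4 genes whose groups do not overlap, and only the intervals of SULT1C and GSTCD leave out 0.

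Among the cytochromes P450, CYP2H1, on chromosome 6 from 17129992 to 17137315 (minus strand, galGal4), had 899.6, 651 and 336 FPKM in resistant 1 to 3, against 2129, 1142 and 647 FPKM in susceptible 1 to 3. Susceptible 1 was far above every other bird, and susceptible 3 lay below resistant 1 and 2, so the groups overlapped. For CYP2H1 the log2 fold change was -0.999 (SE 0.54, 95% interval -2.20 to 0.20), and -0.56 without susceptible 1. cyp3A37, on chromosome 14 from 3919206 to 3928547 (minus strand), had 521, 773 and 1219 FPKM in the resistant birds, against 1854, 786 and 1624 FPKM in the susceptible birds. Resistant 3 lay between the susceptible birds, and the log2 fold change was -0.76 (SE 0.48). The order of the birds differed between these genes: resistant 3 was the lowest bird for CYP2H1 and the highest resistant bird for cyp3A37.

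CYP2D6, whose human namesake oxidises many drugs, lies on chromosome 1 from 49264035 to 49274937 (plus strand). It had 89.2, 94.9 and 131.7 FPKM in the resistant birds, against 187.5, 135.5 and 175.0 FPKM in the susceptible birds. The groups did not overlap, by a margin of under 4 FPKM between resistant 3 and susceptible 2. The log2 fold change of CYP2D6 was -0.66 (SE 0.35, 95% interval -1.45 to 0.13) with an unadjusted limma p of 0.093 and an adjusted p of 0.984. CYP4V2, a fatty acid omega-hydroxylase in humans, had 52.7, 55.2 and 88.4 FPKM in the resistant birds, against 102, 62.0 and 92.4 FPKM in the susceptible birds. CYP2U1, a fatty acid hydroxylase in humans, lay the other way, with 21.8, 46.4 and 73.7 FPKM in the resistant birds, against 33.7, 10.9 and 42.1 FPKM in the susceptible birds. Both sets of values overlapped, with log2 fold changes of -0.39 (SE 0.40) for CYP4V2 and 0.73 (SE 0.62) for CYP2U1, which was 0.16 without susceptible 2. CYP2R1 and CYP20A1, a P450 of unknown substrate, were listed at 0 in 2 and 1 birds and reached at most 8.06 and 13.1 FPKM.

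FMO4, a flavin monooxygenase on chromosome 8, had 4.74, 2.92 and 0 FPKM in the resistant birds, against 2.21, 0 and 4.73 FPKM in the susceptible birds, thus under 5 FPKM throughout. The FMO4 log2 fold change of 0.10 (SE 1.01) changed sign without resistant 1, resistant 2 or susceptible 2, at -0.42, -0.14 and -0.60.

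EPHX2, the soluble epoxide hydrolase that opens fatty acid epoxides, had 64.9, 34.5 and 11.9 FPKM in the resistant birds, against 34.4, 14.0 and 0 FPKM in the susceptible birds. Within each group the bird with 0 chromosome W fragments was the lowest. The EPHX2 log2 fold change of 1.94 (SE 1.19) rested on the 0 of susceptible 3 and was 0.44 without that bird.

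The aldehyde dehydrogenases did not all lie in the same direction. Of the 11 genes tested, 7 had a negative and 4 a positive log2 fold change, at a median of -0.32. Among the 4, ALDH6 and ALDH1A2 rested on a listed 0 in a susceptible bird. With 0s as missing their log2 fold changes were -0.15 and -0.060. The groups overlapped for all 11, and 0 had an unadjusted limma p under 0.05. ALDH9A1, which serves carnitine synthesis, was the most abundant. It had 250.0, 274 and 105 FPKM in the resistant birds, against 352, 247 and 145 FPKM in the susceptible birds, and its log2 fold change of -0.27 (SE 0.49) turned to 0.17 without resistant 3 and to 0.029 without susceptible 1. ALDH1A1, which oxidises retinal and lies on chromosome Z, had 58.5, 103 and 219 FPKM in the resistant birds, against 190, 89.4 and 173 FPKM in the susceptible birds. The ALDH1A1 log2 fold change of -0.38 (SE 0.53) turned to 0.067 without resistant 1. ALDH6A1, an enzyme of valine breakdown, had 114, 241 and 96.8 FPKM in the resistant birds, against 142, 72.0 and 152 FPKM in the susceptible birds. Its log2 fold change of 0.25 (SE 0.47) turned to -0.14 without resistant 2 and -0.085 without susceptible 2.

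Most of the remaining aldehyde dehydrogenases serve fatty aldehyde and amino acid pathways. ALDH3A2, the fatty aldehyde dehydrogenase, ranged between 79.2 and 122.3 FPKM in the resistant and between 107.6 and 152 FPKM in the susceptible birds. ALDH5A1, which removes succinic semialdehyde, ranged between 58.5 and 68.5 FPKM in the resistant and between 35.4 and 63.0 FPKM in the susceptible birds. ALDH18A1 was the least steady of the enzymes above 0 in every bird. It had 10.2, 12.3 and 0.832 FPKM in the resistant birds, against 11.8, 31.2 and 26.5 FPKM in the susceptible birds, so resistant 3 stood alone and resistant 2 lay above susceptible 1. ALDH4A1, which completes proline breakdown, had 84.9, 33.0 and 116 FPKM in the resistant birds, against 93.7, 138 and 55.6 FPKM in the susceptible birds. ALDH7A1, of lysine breakdown and on chromosome Z, ranged between 60.4 and 204 FPKM in the resistant and between 91.5 and 154 FPKM in the susceptible birds. ALDH1A2, the retinoic acid-forming enzyme of the embryo, and ALDH6 stayed at or under 4.89 FPKM.

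Among the aldo-keto reductases, AKR1A1, the general aldehyde reductase on chromosome 8 (20059937 to 20074822, plus strand), did not overlap between groups in the deposited FPKM. It had 54.8, 49.0 and 47.8 FPKM in the resistant birds, against 75.4, 75.3 and 58.9 FPKM in the susceptible birds. On these values AKR1A1 was also the steadiest of the 30 enzymes above 0 in every bird, with a highest value 1.58 times the lowest. Divided by their median-ratio factors of 1.03 and 0.839, resistant 1 and 2 lay above susceptible 3, whose factor was 1.12. The groups of AKR1A1 then overlapped. Its log2 fold change was -0.45 (SE 0.36, 95% interval -1.26 to 0.35), and -0.36 after that rescaling. AKR1B1L, an aldose reductase relative, had 20.4, 19.0 and 31.7 FPKM in the resistant birds, against 163, 41.6 and 30.1 FPKM in the susceptible birds. Susceptible 1 stood far above every other bird, and the log2 fold change of AKR1B1L was -1.32 (SE 0.62) with it and -0.59 without it. AKR1D1, the steroid 5-beta-reductase of bile acid synthesis, had 256, 215 and 228 FPKM in the resistant birds, against 222, 124 and 263 FPKM in the susceptible birds. Its log2 fold change of 0.26 (SE 0.38) became -0.057 without susceptible 2.

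AOX1, the aldehyde oxidase, varied 10.4-fold between birds, and not by group. It had 6.03, 5.83 and 60.8 FPKM in the resistant birds, against 13.1, 10.6 and 35.0 FPKM in the susceptible birds. AOX2P starts 4204 bases beyond AOX1 on the same strand of chromosome 7. It had 2.67, 0.512 and 4.78 FPKM in the resistant birds, against 0, 0 and 6.77 FPKM in the susceptible birds. Resistant 3 and susceptible 3 were the highest birds for both genes. The sources used here do not say how fragments shared by such relatives were assigned.

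Among the conjugating enzymes, the sulfotransferases held the enzyme with the smallest p of those above 0 in every bird. SULT1C, whose mammalian relatives sulfate phenolic and N-hydroxylated compounds, lies on chromosome 1 from 135521670 to 135527319 on the plus strand in the galGal4 build. It had 169, 118 and 209 FPKM in the resistant birds, against 295, 254 and 385 FPKM in the susceptible birds. Every resistant bird lay below every susceptible bird. These values rest on 1461, 1156 and 1069 fragments in the resistant birds, against 2132, 1393 and 2758 in the susceptible birds. For SULT1C the log2 fold change was -0.93 (SE 0.37), and its 95% interval ran from -1.76 to -0.095. Its unadjusted limma p was 0.033 and its adjusted p 0.984. Without each bird in turn its log2 fold change lay between -1.12 and -0.70, and its unadjusted limma p between 0.0165 and 0.0787. As the groups do not overlap, leaving out a bird could not change the sign.

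SULT1E1, the oestrogen sulfotransferase, had 33.3, 41.5 and 11.8 FPKM in the resistant birds, against 69.0, 58.2 and 34.3 FPKM in the susceptible birds. Only resistant 2 reached into the susceptible range, and the log2 fold change was -0.99 (SE 0.55), and -0.47 without resistant 3. SULT1B1, a sulfotransferase of phenols and thyroid hormones, lies 930 bases from SULT1E1 on chromosome 4, on the same strand. It had 28.2, 33.6 and 0.258 FPKM in the resistant birds, against 25.9, 35.6 and 0 FPKM in the susceptible birds. In resistant 3 the SULT1B1 value corresponds to 1 fragment, while the other birds above 0 had between 142 and 250 fragments. Its log2 fold change of 0.12 (SE 1.57) took either sign as single birds were left out, between -1.53 and 1.68. SULT4A1, a brain-type member, was listed at 0 in 2 birds and reached at most 12.6 FPKM.

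The glutathione transferases held 25.2% of the summed mean FPKM of the enzymes. Of the 11 genes, 6 had a negative and 5 a positive log2 fold change. Among the 5 positive genes, MGST2, MGST3 and GSTCD had listed 0s in susceptible birds, and MGST3 turned negative without susceptible 3. MGST1 had 387, 456 and 304 FPKM in the resistant birds, against 829, 482 and 344 FPKM in the susceptible birds. Susceptible 1 stood above the rest, susceptible 3 lay within the resistant range, and the log2 fold change of -0.45 (SE 0.42) was -0.11 without susceptible 1. GSTA had 325, 207 and 524 FPKM in the resistant birds, against 289, 387 and 287 FPKM in the susceptible birds. Its log2 fold change was 0.05 (SE 0.41) and turned negative without resistant 3, susceptible 1 or susceptible 3, at -0.29, -0.022 and -0.029. GSTZ1, which isomerises maleylacetoacetate in tyrosine breakdown, had 177, 149.6 and 333 FPKM in the resistant birds, against 222, 277 and 199 FPKM in the susceptible birds. Its log2 fold change of -0.15 (SE 0.40) became 0.078 without resistant 2.

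3 alpha-class genes lie in a row on the plus strand of chromosome 3 between 87785842 and 87837950, and each ranked the birds in its own way. The first GSTA3 locus (ENSGALG00000016324) had 136, 68.6 and 106.6 FPKM in the resistant birds, against 70.5, 119.5 and 41.9 FPKM in the susceptible birds. The second, ENSGALG00000016325, starts 5100 bases further on. It had 35.8, 40.0 and 187 FPKM in the resistant birds, against 119.1, 59.3 and 232 FPKM in the susceptible birds. Susceptible 3 was the lowest bird at the first GSTA3 locus and the highest at the second. These loci share a symbol and are close relatives, so their values are uncertain to the extent that fragments could have been split between them.

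The lower genes with glutathione transferase names included the one with the smallest p of all genes taken by name. This was GSTCD, described only as containing a glutathione transferase C-terminal domain, so its place among the enzymes rests on its name. GSTCD lies on chromosome 4 from 38057434 to 38119998 (minus strand). It had 6.29, 6.39 and 2.26 FPKM in the resistant birds, against 0, 1.34 and 0 FPKM in the susceptible birds. Every resistant bird lay above every susceptible bird, on 155, 180 and 33 fragments in the resistant birds, against 0, 21 and 0 in the susceptible birds, so the gap rests in part on 2 listed 0s. For GSTCD the log2 fold change was 2.08 (SE 0.83), and its 95% interval ran from 0.22 to 3.94. Its unadjusted limma p was 0.032 and its adjusted p 0.984. With 0s treated as missing GSTCD could not be tested, and with 2 listed 0s the size of its fold depends on the pseudocount. MGST3, a microsomal transferase that also reduces lipid peroxides, had 140.0, 85.2 and 72.0 FPKM in the resistant birds, against 247, 137 and 0 FPKM in the susceptible birds. The nearest enzyme gene, ALDH9A1, lies 1435 bases from MGST3 on the opposite strand and stood at 145 FPKM in the bird where MGST3 was listed at 0. The MGST3 log2 fold change of 1.57 (SE 1.67) rested on that 0 and was -0.94 without susceptible 3. The theta-class GSTT1 ranged between 65.1 and 77.1 FPKM in the resistant and between 62.7 and 115 FPKM in the susceptible birds, and the kappa-class GSTK1 between 93.6 and 128 FPKM in the resistant and between 105 and 160 FPKM in the susceptible birds. The omega-class GSTO1 was low, at 2.98 to 17.8 FPKM in the resistant and 11.9 to 25.0 FPKM in the susceptible birds.

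NAT, the liver arylamine N-acetyltransferase, had 97.5, 65.3 and 259 FPKM in the resistant birds, against 162, 191 and 309.5 FPKM in the susceptible birds. Resistant 1 and 2 were below all susceptible birds and resistant 3 was above susceptible 1 and 2. For NAT the log2 fold change was -0.84 (SE 0.53), and it was -0.41 without resistant 2 and -1.40 without resistant 3.

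Summed over the 47 genes, the enzymes held 1.16%, 1.32% and 1.26% of all FPKM in resistant 1 to 3, against 1.94%, 1.37% and 1.45% in susceptible 1 to 3. The mean share was 1.25% ± 0.0776 in the resistant group and 1.59% ± 0.309 in the susceptible group (SD, n = 3 each). The groups did not overlap, but the gap between resistant 2 and susceptible 2 was small against the spread of the susceptible birds. The lack of overlap also depends on what the total holds. The 4 laying-hen oestrogen response genes, VTG2 among them, summed to 43230, 47026 and 25.6 FPKM in resistant 1 to 3. In susceptible 1 to 3 they summed to 5990, 31172 and 98.2 FPKM. All FPKM came to 351666 in resistant 2 and 441789 in susceptible 2, and ALB was listed at 0 in resistant 2 and susceptible 3. This summed share was not tested because the genes were chosen with results known. By family, the sulfotransferases held 0.0520% ± 0.00485 in the resistant group and 0.0860% ± 0.00775 in the susceptible group (SD, n = 3 each), most of it SULT1C. The genes whose names start with CYP2, CYP20A1 and CYP21A2 included, held 0.193% ± 0.0678 in the resistant group and 0.330% ± 0.156 in the susceptible group. The glutathione transferases held 0.343% ± 0.0218 in the resistant group and 0.372% ± 0.0648 in the susceptible group (SD, n = 3 each).

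**Figure D3:**
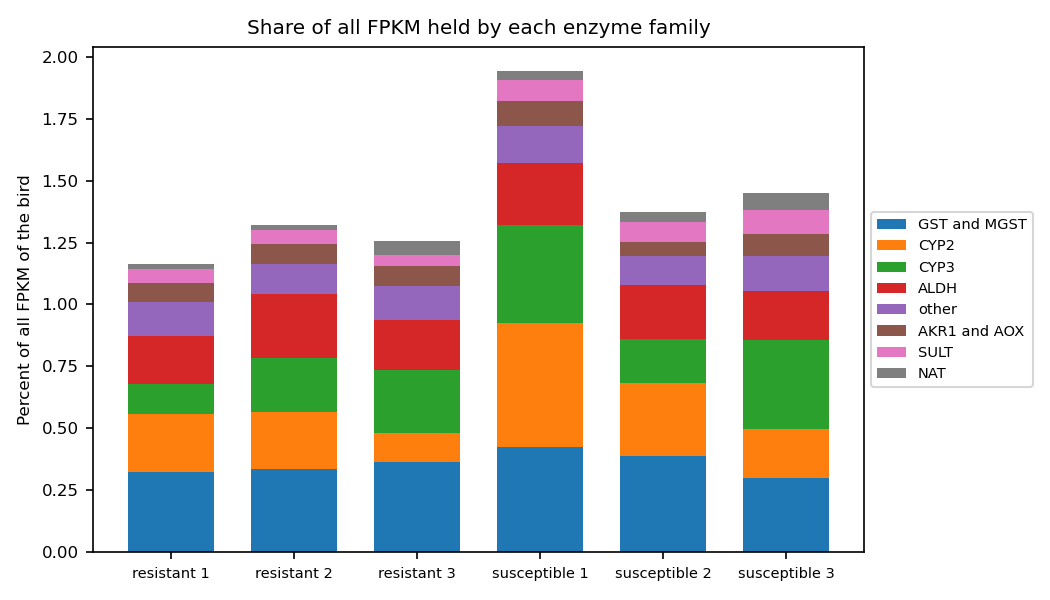
Percent of all FPKM of each bird held by the 47 enzyme genes, stacked by family, with the CYP4, FMO and EPHX families joined as other, resistant birds at the left. Susceptible 1 has the tallest bar at 1.94%, the others lie between 1.16% and 1.45%, and the CYP2 segment differs most between birds. By name, CYP2 here takes in CYP20A1 and CYP21A2.

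The enzymes that varied most often did so between birds within both groups. In resistant 3 and susceptible 3, the birds with 0 chromosome W fragments, 6 of the 42 tested enzymes lay above and 7 lay below all 4 other birds. Over all 9626 tested genes 13.3% lay above and 6.6% below in this way. The share above was thus near the background at 14.3%, and the share below was 16.7%. This arrangement was chosen after the values were seen and carries no test, and sex, the sample numbers and any other difference of these 2 birds cannot be told apart. The genes above were AOX1, AOX2P, NAT, GSTO1, ALDH1A2 and the second GSTA3 locus. The genes below were CYP2H1, ALDH8A1, ALDH9A1, EPHX2, MGST1, MGST3 and SULT1B1, and for EPHX2, MGST3 and SULT1B1 the susceptible 3 value was a listed 0. Among the 30 enzymes above 0 in every bird 4 lay above and 4 below, or 13.3% each, where 16.5% of all such genes lay above and 7.19% below. ALDH8A1, an enzyme of tryptophan breakdown, had 59.4, 44.1 and 12.1 FPKM in the resistant birds, against 88.4, 77.5 and 14.2 FPKM in the susceptible birds. Its resistant 3 and susceptible 3 values were both under 15 FPKM, whereas the other birds were all above 44 FPKM. Of these 13 genes, 0 lie on chromosome Z, since the Z-linked ALDH1A1 and ALDH7A1 overlapped between the birds.

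**Figure D4:**
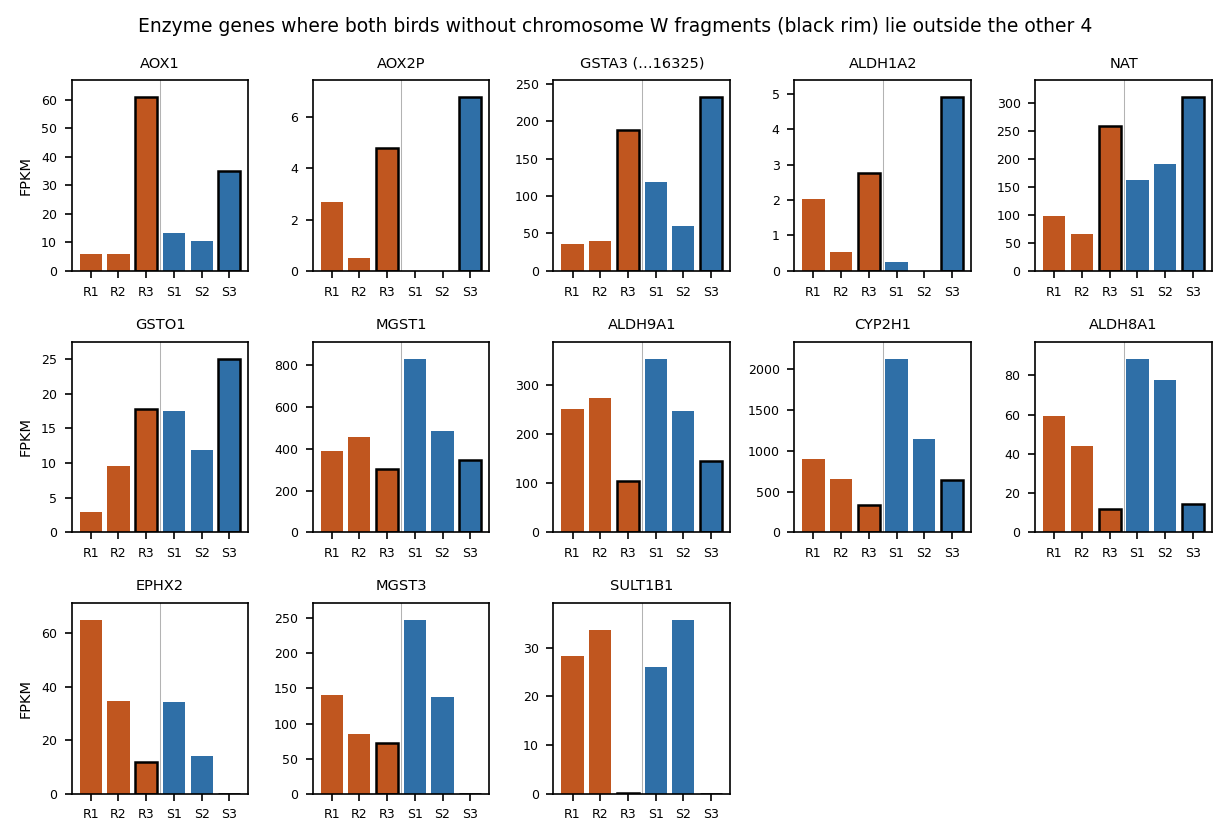
FPKM in each bird (R1 to R3 resistant, S1 to S3 susceptible) of the 13 enzyme genes for which resistant 3 and susceptible 3, rimmed in black, lie outside the range of the other 4 birds. AOX1 stands at 60.8 and 35.0 FPKM in those birds and at most 13.1 elsewhere, and SULT1B1 at 0.258 and 0 against 25.9 or more.

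In a fit of the 4 birds that had such fragments, resistant 1 and 2 against susceptible 1 and 2, limma called 0 enzymes at the adjusted threshold, and the smallest adjusted p of an enzyme was 0.418. The median log2 fold change of the 42 enzymes was then -0.54, against 0.025 over all genes. At an unadjusted p under 0.05 limma counted 5 of 42 enzymes lower and 1 higher in these resistant birds, where 2.24% of all tested genes were lower and 6.42% higher: CYP2D6, GSTT1, NAT, SULT1C and SULT1E1 lower, and GSTCD higher.

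Other genes of the pathway were taken from lists by role, and 0 of them passed limma over all genes. Of 11 tested receptors and regulators of these enzymes, 7 had a negative and 4 a positive log2 fold change, at a median of -0.14. ARNT, the partner of the aryl hydrocarbon receptor, had 17.3, 11.9 and 23.8 FPKM in the resistant birds, against 4.66, 4.39 and 10.5 FPKM in the susceptible birds. The groups did not overlap for ARNT, whose log2 fold change was 1.35 (SE 0.62) with an unadjusted limma p of 0.054 and an adjusted p of 0.984. AHR, the receptor itself, overlapped at 26.9 to 121 FPKM in the resistant and 57.9 to 103 FPKM in the susceptible birds.

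Of 15 genes that pass electrons or supply haem to P450 enzymes, 10 had a negative and 5 a positive log2 fold change, at a median of -0.088. POR, the reductase that all microsomal P450 enzymes depend on, had 59.5, 42.8 and 116 FPKM in the resistant birds, against 55.5, 52.9 and 121 FPKM in the susceptible birds, highest in resistant 3 and susceptible 3. ALAS1, the first enzyme of haem synthesis, had 84.0, 66.5 and 28.9 FPKM in the resistant birds, against 94.3, 156 and 32.0 FPKM in the susceptible birds, lowest in the same 2 birds. The smallest p of this list belonged to PGRMC2, which binds haem. It had 2.04, 7.24 and 0 FPKM in the resistant birds, against 17.5, 75.3 and 43.7 FPKM in the susceptible birds. Its log2 fold change of -3.77 (SE 0.88) rested in part on the 0 of resistant 3, and its adjusted limma p was 0.984.

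Of 17 genes that supply cofactors for conjugation, 10 had a negative and 7 a positive log2 fold change, at a median of -0.13. GCLC, which limits glutathione synthesis, had 8.202, 7.87 and 14.0 FPKM in the resistant birds, against 27.8, 23.0 and 15.3 FPKM in the susceptible birds. The groups did not overlap, and its log2 fold change was -1.07 (SE 0.53). SLC35D1, a carrier of UDP-sugars into the endoplasmic reticulum, had 7.09, 3.51 and 5.33 FPKM in the resistant birds, against 1.88, 0 and 0 FPKM in the susceptible birds. Of the suppliers of activated sulfate, PAPSS1 had 5.56 to 6.80 FPKM in the resistant birds and 0 to 5.97 FPKM in the susceptible birds, and PAPSS2 had 40.0 to 76.5 FPKM in the resistant and 28.9 to 92.5 FPKM in the susceptible birds. The groups overlapped for PAPSS1 and for PAPSS2.

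Of 20 other enzymes of both phases, 10 had a negative and 10 a positive log2 fold change, at a median of 0.076. At an unadjusted limma p under 0.05, 2 were lower in resistant birds and 0 higher. Over all tested genes 1.48% were lower and 2.4% higher at that p. The 2 enzymes were the aryl hydrocarbon receptor targets CYP1A1 and CYP1A4. Of 15 tested transporters of drugs and bile acids, 8 had a negative and 7 a positive log2 fold change, at a median of -0.016. SLCO2B1, an uptake carrier, had 6.88, 4.08 and 7.52 FPKM in the resistant birds, against 9.54, 26.1 and 10.8 FPKM in the susceptible birds. ABCC4, an export pump, had 1.75, 2.87 and 3.06 FPKM in the resistant birds, against 0.587, 0 and 0 FPKM in the susceptible birds. Neither list had more than 2 genes at an unadjusted limma p under 0.05, and the smallest adjusted p among these genes, that of CYP1A1, was 0.708 by limma.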

How the data were processed

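Liver RNA of 6 birds was analysed, grouped and numbered by the sample titles. FPKM values are the authors' own. Tools listed in the submitters' processing notes, without roles, are HISAT2 2.0.4, cutadapt 1.9.3, Cuffdiff and Cufflinks, and the build is galGal4. The authors also deposited a scaled signal, named counts per the file headers. Above 0.1, at least 99.8% of a bird's values were whole multiples of 1 step within 0.02 steps or a hundred-thousandth part of the value, so each step was taken for 1 fragment after scaling. How the authors handled strand and shared fragments is not stated in these sources. There were 0 columns of other samples. Locus starts were raised by 1 to count from 1.

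limma 3.58.1 in R 4.3.3 (lmFit, eBayes with trend) tested log2(FPKM + 1), 2-sided, over the 9626 genes averaging 0.5 FPKM or more, with Benjamini-Hochberg adjustment over all of them. On that scale the pseudocount understates the fold changes of low genes. A listed 0 can instead make a fold too large or turn its sign. For ALDH6 it was 0.47 in this fit and -0.15 with 0s as missing. No counting model was run. The fit was tested on simulated data. Chi-square per degree of freedom between birds of a group was 144 or more, so no library was counted as a duplicate. The p-values set the group difference against the spread between birds, which limma draws towards the trend over all tested genes. For the steadiest genes the SE can thus exceed what their own birds show.

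The enzymes, lists and tests were chosen with earlier results of these data known. The naming rule took the 3 most abundant tested genes of each family, genes with no overlap or an unadjusted p under 0.05, genes listed at 0 throughout, and the 2 smallest p of each pathway list. Other genes described were picked after their values were seen. By GeneID, 40 of 47 genes matched RefSeq, 3 of them under another symbol. Figures used matplotlib 3.10.9 in Python 3.11.15. A few genes the rule takes are not reported here.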

Additional observations from a re-analysis of the deposited data

How the results depend on the processing

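limma called 0 enzymes and 0 genes in all at the adjusted threshold under each of the 14 alternatives: another pseudocount, no filter or one of 5 FPKM, median-ratio rescaling, scaled counts, 0s as missing, a replicate block, leaving out each bird, and the birds with chromosome W fragments. The planned count test was not run, because the scaled counts hold a few values below their step. With 3 birds a group, power is limited. The median log2 fold change of the enzymes stayed negative throughout. It lay between -0.35 and -0.14 without single birds and was -0.54 in the birds with chromosome W fragments. With median-ratio rescaling it was -0.23, and with the replicate block -0.32. Deviations of same-numbered birds correlated at 0.01, 0.04 and 0.17, and those of other pairs between -0.13 and 0.12. The highest value was that of resistant 3 with susceptible 3, the birds with 0 chromosome W fragments. Whether the numbers pair the birds cannot be told from these values. Under the block, 3 of 42 enzymes were lower and 2 higher at an unadjusted p under 0.05, against 1.91% and 2.85% of all genes. Leaving out single birds, these counts ranged from 0 to 4 and from 0 to 1, against 0.841% to 2.2% and 2.39% to 4.07% of all genes. With 0s as missing, 31 of 39 enzymes had a negative log2 fold change, at a median of -0.38. The median over all genes tested in that setting was also negative, at -0.14. There limma counted 2 of 39 enzymes lower and 0 higher at an unadjusted p under 0.05, against 3.48% and 0.957% of all genes.

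Of the 21 enzymes that the naming rule took by abundance, lack of overlap or p, 13 kept their direction in all alternatives run. For those whose groups do not overlap, leaving out birds could not change the sign. These counts leave out the other enzymes described above. Many of those also changed sign in some alternative, among them MGST3, AOX1, ALDH1A2, ALDH4A1, ALDH5A1, ALDH6, ALDH7A1, ALDH8A1, CYP20A1, CYP2R1 and SULT4A1. Others, such as ALDH18A1 and GSTK1, did not. GSTA turned to -0.37 in the birds with chromosome W fragments, and SULT1B1 to -1.53 with 0s as missing, which leaves out susceptible 3. Without single birds, the log2 fold change ranged from -0.29 to 0.38 for GSTA, -0.61 to 0.17 for ALDH9A1, -0.50 to 0.078 for GSTZ1, -0.057 to 0.48 for AKR1D1, -0.88 to 0.067 for ALDH1A1, -0.14 to 0.51 for ALDH6A1, -1.53 to 1.68 for SULT1B1 and -0.60 to 0.85 for FMO4. The log2 fold change of GSTCD was 4.25 with a pseudocount of 0.1 and 4.95 with scaled counts, and that of EPHX2 was 3.04 and 3.02. GSTCD was listed at 0 in susceptible 1 and 3, and EPHX2 in susceptible 3. The size of these folds thus depends on the pseudocount and the scale, and for EPHX2 it was 0.44 without susceptible 3.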
